A study of Homo sapiens with 35 samples.

Results

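Gene expression was compared directly between 2 knockdown lines of HCT116 during normal growth, 1 carrying a short hairpin RNA against CDK8 (shCDK8) and 1 carrying a hairpin against CDK19 (shCDK19). HCT116 is an established human colorectal carcinoma line. The comparison rests on the 3 shCDK8 and 3 shCDK19 arrays labelled untreated and grown in serum-containing McCoy's 5A, 6 of the 35 arrays of the series. The 3 arrays of HCT116 cells with a non-target hairpin (shControl), grown the same way, were used to tell which line had moved. They also entered the fit, so the spread behind each p-value is pooled over these 9 arrays. Arrays of the same 2 knockdown lines in low glucose DMEM for 24 hours (3 per line), in 5-fluorouracil (5FU) for 12 hours (2 per line) and in 1% oxygen for 24 hours (hypoxia, 2 per line) show whether the differences recur. Each target is represented by 1 hairpin line. No label says that replicates were separate cultures, so each p-value reflects the spread among these arrays and that spread may be technical. What a hairpin does through its target and what else sets a line apart cannot be told apart.

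CDK8 and CDK19 are closely related cyclin-dependent kinases. Either can join cyclin C, MED12 or MED12L, and MED13 or MED13L to form the kinase module of Mediator, a large coactivator complex that passes signals from DNA-bound factors to the polymerase. CDK8 is known as a coactivator of beta-catenin in colorectal cancer cells. The kinase module can favour or oppose transcription, depending on the gene.

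Values are the authors' deposited log2 values, so a difference of 1 is a 2-fold change. They lie between a floor of 20 and a ceiling of 20000 on the linear scale. A gene was called when its adjusted p was under 0.05 (limma, Benjamini-Hochberg over 18404 genes). Differences are shCDK8 minus shCDK19 with their standard error (SE), unless another pair is named. The number of arrays limits the precision. Within shControl the arrays correlated at 0.998 or closer. The first shCDK8 array stood apart from the other 2 (r of 0.987 and 0.989, against 0.997 between those), and its values were less spread, with an interquartile range of 3.50 against 3.75 and 3.72. The third shCDK19 array stood apart less far (r of 0.994 and 0.995). The deviations of these 2 arrays from their group means ran the same way (r = 0.746 across 16173 genes, which are not independent).

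Both hairpins lowered their targets. The transcript cluster annotated to CDK8, which also carries the symbol ADRA1B, read 7.58, 8.53 and 8.35 in shCDK8. It read 10.51, 10.30 and 10.17 in shCDK19 and 10.36, 10.22 and 10.23 in shControl. The shCDK8 arrays lay below all others, and the other 2 groups overlapped. The difference was -2.18 ± 0.24 (SE), a 4.53-fold lower level (adjusted p = 0.00148). Because its cluster has 2 symbols, CDK8 is outside the 18404 genes and was tested among all clusters.

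CDK19 read 7.78, 7.69 and 7.32 in shCDK19, 9.32, 9.47 and 9.49 in shCDK8, and 9.10, 9.09 and 9.11 in shControl. The 3 groups did not overlap, and the shCDK19 arrays were lowest. The lines were 3.55-fold apart in the same fit over all clusters (1.83 ± 0.12, adjusted p = 0.000171). Against shControl, CDK19 fell by 1.50 in shCDK19 (adjusted p = 0.0014). In shCDK8 it stood 0.33 ± 0.12 above shControl, which did not pass the test (adjusted p = 0.126). Both targets also differed between the lines in each of the other 3 conditions. There the CDK8 cluster was lower in shCDK8 by values from -2.68 in 5FU to -2.19 in low glucose, and CDK19 was higher by 1.22 in 5FU to 1.58 in hypoxia.

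The rest of the kinase module differed as well, by less. MED13L, a subunit that tethers the module to Mediator, was higher in shCDK8 (12.30, 12.37 and 12.32) than in shCDK19 (11.60, 11.68 and 11.59), by 0.71 ± 0.04 (adjusted p = 2.24e-05). It moved in both lines, by 0.18 in shCDK8 and by -0.52 in shCDK19 against shControl. Its paralog MED13 differed by 0.31 ± 0.05, with shCDK19 below shControl by -0.21 and shCDK8 at 0.10 without passing the test. MED12 was higher in shCDK8 by 0.30 and CCNC, which encodes cyclin C, was lower by -0.35. MED12L did not pass the test (0.21 ± 0.10, adjusted p = 0.193). Of the core Mediator genes, 24 were measured, 1 was higher (MED23, 0.36) and 4 were lower, the furthest being MED28 (-0.36). That is 4.17% higher and 16.7% lower, beside 12.9% and 13.2% of all genes. The 4 lower core genes became 1 without shCDK19 replicate 1, or with only the 6 shCDK8 and shCDK19 arrays in the fit.

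Over all genes, 4805 of 18404 were called in the direct comparison, or 26.1%. They divided into 2378 higher in shCDK8 (12.9%) and 2427 lower (13.2%), and the median difference over all genes was -0.02. Most differences were small: 171 called genes were at least 2-fold higher and 137 at least 2-fold lower, and 29 and 30 were at least 4-fold apart. The arrays of the 2 lines did not overlap at 4797 of the 4805 called genes, and at 6466 of all 18404 genes. Without shCDK8 replicate 1, the array that stood apart, 7349 genes were called, 3463 higher and 3886 lower. Of the 4805 genes, 4637 were among them. With only the 6 shCDK8 and shCDK19 arrays in the fit 3363 genes were called, 1697 higher and 1666 lower.

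The shCDK8 line was the one that had moved at most of these genes. Against shControl, 4579 genes were called in shCDK8 (24.9%) and 1301 in shCDK19 (7.07%, with 3.67% higher and 3.4% lower), beside 11.4% higher and 13.5% lower in shCDK8. These comparisons share the shControl arrays. Of the 4805 genes that separated the lines, 2830 (58.9%) were called against shControl in shCDK8 alone, 377 (7.85%) in shCDK19 alone and 215 in both with opposite signs. Another 295 were called in both with the same sign, and 1088 in neither. Being called in 1 line alone does not show that the other line differs from it, but here the lines were also tested directly. Of the 308 genes at least 2-fold apart, 171 were called in shCDK8 alone, 19 in shCDK19 alone, 80 in both with opposite signs, 37 in both with the same sign and 1 in neither. Without shCDK8 replicate 1 the share called in shCDK8 alone was 56.3% of 7349 genes, and 117 of 339 genes at least 2-fold apart had opposite signs. The count for shCDK19 against shControl became 2531 without that array, and between 662 and 814 without any 1 of the shControl or shCDK19 arrays.

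**Figure D1:**
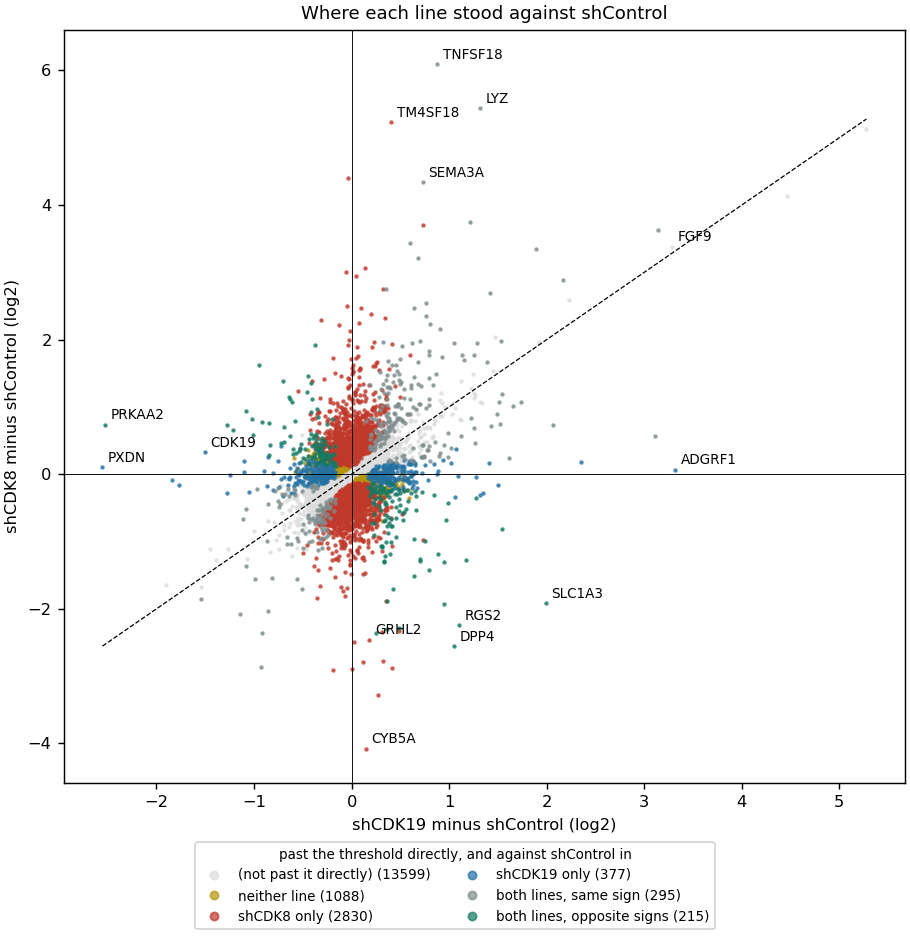
Each point is 1 of the 18404 genes, with shCDK19 minus shControl on the x axis and shCDK8 minus shControl on the y axis, both in log2 units and sharing the 3 shControl arrays; colours show the lines in which a gene called in the direct comparison also passed against shControl, and the dashed line marks equal differences. Most coloured points spread along the vertical axis (2830 genes, shCDK8 alone), fewer along the horizontal axis (377, shCDK19 alone), and 215 lie in the quadrants of opposite sign.

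Members of the tumour necrosis factor ligand family had the highest and the third highest difference. TNFSF18, the ligand of the costimulatory receptor GITR, read 10.65, 11.04 and 11.01 in shCDK8 and 5.87, 5.75 and 5.47 in shCDK19. In shControl it read 4.63, 4.83 and 4.97, so the shCDK8 arrays stood far above both other groups. The lines were 37-fold apart (5.21 ± 0.15, adjusted p = 7.19e-07). TNFSF4, the OX40 ligand and a neighbour of TNFSF18 on chromosome 1, read 9.43, 9.92 and 10.02 in shCDK8 and 5.27, 5.42 and 5.34 in shCDK19, a 21.8-fold difference (4.45 ± 0.14, adjusted p = 1.24e-06). Its shCDK19 and shControl arrays overlapped. FASLG, the next TNF ligand gene on the other side of TNFSF18, did not pass the test (0.04 ± 0.11, adjusted p = 0.876). Of 13 TNF ligands measured 4 rose (30.8%) and 0 fell, beside 12.9% and 13.2% of all genes. The median difference was 0.04, and -0.06 without shCDK8 replicate 1. The other 2 that rose were TNFSF9 (0.65) and TNFSF13B (0.61).

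TM4SF18, a membrane protein of the TM4SF family, was second. It read 10.46, 10.72 and 10.80 in shCDK8, 6.02, 5.69 and 5.81 in shCDK19 and 5.37, 5.44 and 5.49 in shControl (4.82 ± 0.11, adjusted p = 4.36e-07). LYZ, which encodes the antibacterial enzyme lysozyme, read 10.39, 10.65 and 10.74 in shCDK8 and 6.66, 6.40 and 6.34 in shCDK19. In shControl it read 5.13, 5.12 and 5.21. LYZ therefore rose in both lines, by 5.44 in shCDK8 and by 1.31 in shCDK19, and the lines were 17.5-fold apart (4.13 ± 0.11, adjusted p = 5.65e-07).

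SEMA3A and SEMA3C encode class 3 semaphorins, secreted guidance cues that signal through neuropilins and plexins. SEMA3A read 12.77, 12.90 and 12.86 in shCDK8 and 9.27, 9.31 and 9.12 in shCDK19 (3.61 ± 0.06, adjusted p = 3.47e-07). It was also higher in shCDK19 than in shControl, by 0.73. SEMA3C moved in opposite directions: it read 9.94, 10.29 and 10.20 in shCDK8, 7.63, 7.64 and 7.45 in shCDK19, and 8.49, 8.56 and 8.51 in shControl between them. Of the 14 semaphorin, neuropilin and plexin genes measured 8 rose (57.1%) and 0 fell, beside 12.9% and 13.2% of all genes. The median difference was 0.33. The receptors NRP1 (1.11) and NRP2 (1.00) were among those that rose. SEMA3D, SEMA3E, SEMA3F and SEMA3G did not pass the test.

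Other genes among the 15 highest rose in shCDK8 and did not pass against shControl in shCDK19. They include the organic anion transporter SLCO3A1 (3.06 ± 0.06, with shCDK19 at -0.06 against shControl), the lipopolysaccharide-degrading enzyme AOAH (2.93 ± 0.13) and the translational regulator CPEB2 (2.60 ± 0.14). SH2D1B, a signalling adaptor best known from natural killer cells, differed by 2.55 ± 0.16. The zinc finger gene ZBED2 differed by 2.85 ± 0.07 and was also 0.59 above shControl in shCDK19.

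PRKAA2 and PXDN reached the 15 highest through a fall in shCDK19. PRKAA2, a catalytic subunit of the energy sensor AMPK, read 5.98, 5.96 and 6.25 in shCDK19, 9.16, 9.49 and 9.33 in shCDK8 and 8.63, 8.49 and 8.65 in shControl. It fell by 2.53 in shCDK19 and rose by 0.74 in shCDK8 against shControl, and the difference between the lines was 3.26 ± 0.11 (adjusted p = 1.48e-06). PXDN, which encodes a peroxidase that cross-links collagen, read 6.92, 6.84 and 7.0 in shCDK19 and 9.45, 9.68 and 9.61 in shCDK8. Its shCDK8 and shControl arrays (9.54, 9.46 and 9.42) overlapped, and the lines differed by 2.66 ± 0.07.

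**Figure D2:**
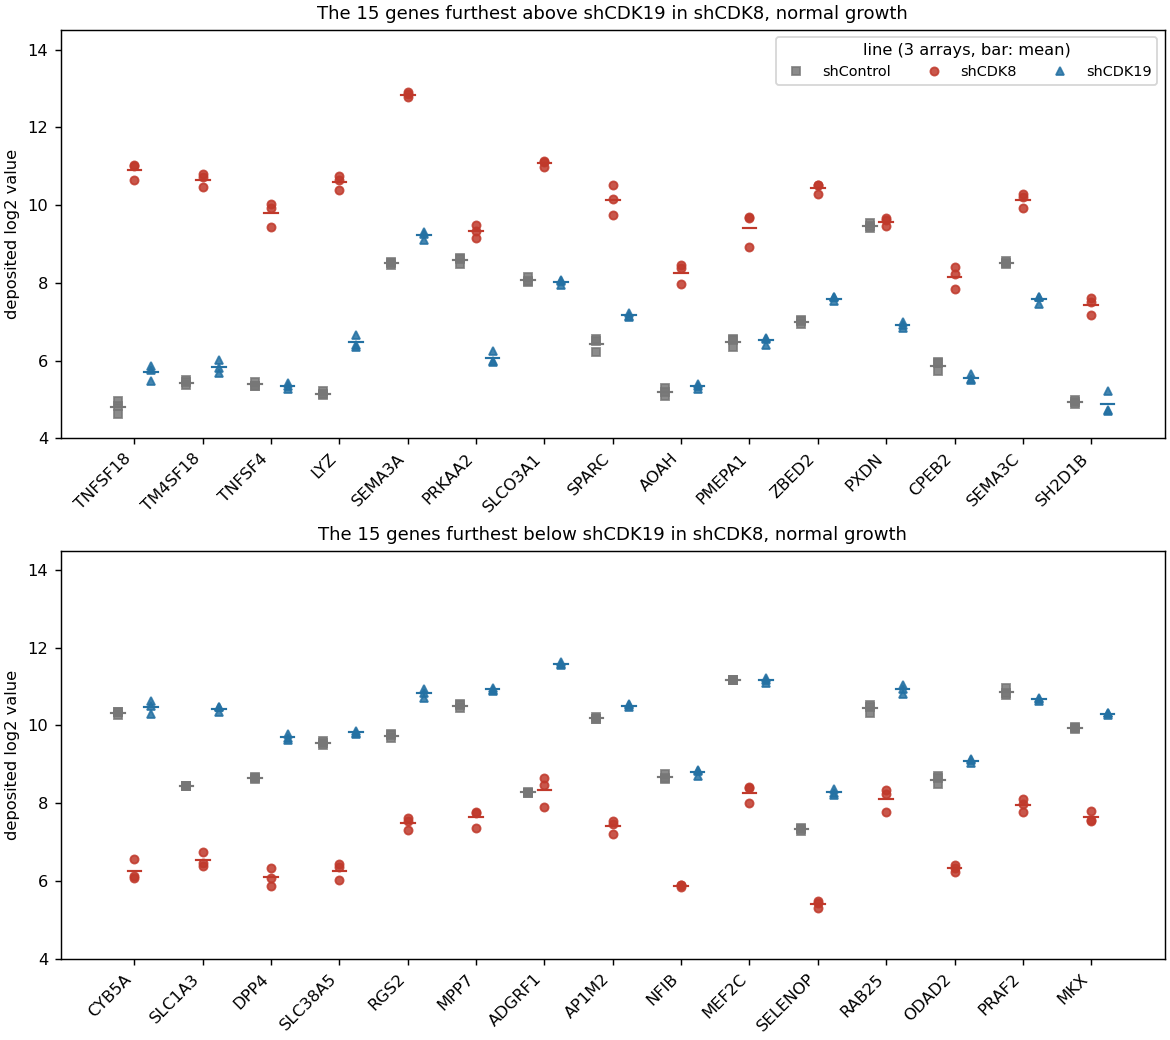
The deposited log2 value on each of the 9 normal growth arrays for the 15 genes furthest higher (top) and the 15 furthest lower (bottom) in shCDK8 than in shCDK19 among called genes whose arrays did not overlap; squares are shControl, circles shCDK8, triangles shCDK19, and short bars are means of 3 arrays. For most genes the triangles lie near the squares and the circles apart; PRKAA2, PXDN and ADGRF1 show the reverse, and SLC1A3, DPP4 and RGS2 have shControl in the middle.

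The gene furthest lower in shCDK8 was CYB5A, which encodes cytochrome b5, an electron donor of lipid and steroid enzymes. It read 6.12, 6.07 and 6.55 in shCDK8, 10.62, 10.49 and 10.29 in shCDK19 and 10.27, 10.34 and 10.36 in shControl. The shCDK8 arrays were far below the other 2 groups, which overlapped, and the lines were 18.7-fold apart (-4.22 ± 0.14, adjusted p = 1.24e-06). NFIB (-2.92 ± 0.06) and MEF2C (-2.89 ± 0.11), both transcription factor genes, followed the same pattern. SLC38A5, an amino acid transporter, differed by -3.56 ± 0.10, and its shCDK19 arrays lay above shControl without passing the test (0.27, adjusted p = 0.198). MKX, another transcription factor gene, differed by -2.66 ± 0.07 and was 0.36 above shControl in shCDK19. In shCDK8 NFIB read 5.90, 5.90 and 5.83, against 8.86, 8.84 and 8.69 in shCDK19. Of the 4 nuclear factor I genes 0 rose and 3 fell (75%), beside 12.9% and 13.2% of all genes. The others that fell were NFIA (-0.90) and NFIX (-0.40).

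A group of genes had moved apart in both directions at the same time. SLC1A3, a glutamate and aspartate transporter, read 6.38, 6.45 and 6.74 in shCDK8 and 10.48, 10.47 and 10.34 in shCDK19, with shControl at 8.44, 8.45 and 8.44. It fell by 1.92 in shCDK8 and rose by 1.99 in shCDK19, and the lines were 15-fold apart (-3.91 ± 0.09, adjusted p = 4.43e-07). DPP4, a cell surface peptidase, fell by 2.56 in shCDK8 and rose by 1.05 in shCDK19. Its arrays read 5.88, 6.32 and 6.07 in shCDK8, 9.79, 9.67 and 9.63 in shCDK19, and 8.65, 8.62 and 8.66 in shControl. RGS2, which limits signalling by G proteins, fell by 2.24 and rose by 1.10. SELENOP, the plasma carrier of selenium, fell by 1.93 and rose by 0.95. These 4 genes were chosen for lines that did not overlap and for opposite signs against shControl, so shControl was in the middle by that choice. Their shControl arrays overlapped with neither line. Of all genes called with opposite signs, 110 were lower in shCDK8 and 105 higher. Among the higher ones DKK1, a secreted Wnt antagonist and beta-catenin target, rose by 0.59 in shCDK8 and fell by 1.01 in shCDK19 (1.60 ± 0.07, adjusted p = 4.26e-06).

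ADGRF1, an adhesion G protein-coupled receptor, was lower in shCDK8 only in relation to shCDK19. It read 11.55, 11.63 and 11.59 in shCDK19 and 7.89, 8.65 and 8.47 in shCDK8, where it overlapped with shControl (8.26, 8.27 and 8.29). The difference was -3.25 ± 0.17 (adjusted p = 1.43e-05). ARRDC4, an arrestin-like regulator of glucose uptake, was also raised chiefly in shCDK19: it stood 1.61 above shControl there and 0.23 above it in shCDK8 (-1.38 ± 0.07).

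Epithelial adhesion genes were lower in shCDK8. Of 35 measured members of this list 24 fell (68.6%) and 5 rose (14.3%), beside 13.2% and 12.9% of all genes. Their median was -0.43, beside -0.02 over all genes. E-cadherin, encoded by CDH1, holds neighbouring epithelial cells together. CDH1 read 8.99, 9.21 and 9.28 in shCDK8, 11.27, 11.30 and 11.27 in shCDK19 and 10.87, 10.80 and 10.90 in shControl. The 3 groups did not overlap, with shCDK19 highest, and the lines were 4.34-fold apart (-2.12 ± 0.07, adjusted p = 1.9e-06). The largest falls on the list were in MPP7, a polarity scaffold (-3.29 ± 0.11), AP1M2, the epithelial sorting subunit of the AP-1 adaptor (-3.10 ± 0.08), RAB25, an epithelial recycling GTPase (-2.82 ± 0.14), and GRHL2, a transcription factor of epithelial identity (-2.64 ± 0.05). GRHL2 read 6.67, 6.64 and 6.75 in shCDK8 against 9.35, 9.29 and 9.34 in shCDK19. Also lower were the adhesion molecule EPCAM (-1.64 ± 0.04) and the membrane serine proteases ST14 (-1.62 ± 0.07) and PRSS8 (-2.61 ± 0.06), the last of which is not on the list. CDH1 and GRHL2 were singled out after their values were seen.

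Some epithelial genes were higher, at a share near that of all genes. The 5 that rose were the keratin genes KRT20 (0.65), KRT18 (0.45) and KRT8 (0.34), the desmosome gene DSP (0.51) and the claudin gene CLDN2 (0.51). In shCDK19, 11 of the 35 members were higher than in shControl and 0 lower, and in shCDK8 22 were lower and 6 higher.

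Upstream sequence is shown for AP1M2 and RAB25 of this list and for S100A14, a calcium-binding protein gene that is not on it (-2.65 ± 0.08), because each holds the E-box CAGGTG, or CACCTG on the other strand, close to its start. This is the E-box that repressors of the SNAI and ZEB families are known to bind. Capitals mark it in the 120 bases before the annotated start, 5′ to 3′ on the gene's strand (RefSeq, GRCh38.p14). They lie at chr19:10587313-10587432 on the minus strand for AP1M2, chr1:156061040-156061159 on the plus strand for RAB25 and chr1:153616326-153616445 on the minus strand for S100A14.
AP1M2: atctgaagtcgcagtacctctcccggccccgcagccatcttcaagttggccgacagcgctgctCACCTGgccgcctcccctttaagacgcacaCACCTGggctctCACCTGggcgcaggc
RAB25: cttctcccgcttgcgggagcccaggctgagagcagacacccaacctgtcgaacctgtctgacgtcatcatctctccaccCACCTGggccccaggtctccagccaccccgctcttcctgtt
S100A14: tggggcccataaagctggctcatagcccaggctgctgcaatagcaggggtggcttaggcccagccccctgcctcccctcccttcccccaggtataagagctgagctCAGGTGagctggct
AP1M2 holds 3 such motifs and the other 2 genes 1 each. The motif was present in 17.5% of 35116 promoter windows of 250 upstream bases, and in 5635 of the 27305 genes with a window. Of the 24 epithelial adhesion genes that fell, 13 had a window in the table and 9 of these held the motif (9 of their 21 windows, 42.9%). Members of the list that did not fall were not counted, so whether the motif goes with the fall was not tested. The motif was in 6 of 35 windows of the 15 lowest genes (17.1%) and in 2 of 18 of the 15 highest (11.1%). These 3 were chosen for holding it, and a match describes letters only.

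Genes of TGF-beta signalling and the mesenchymal state were higher in shCDK8 where they differed. Of 31 measured 14 rose (45.2%) and 2 fell (6.45%), beside 12.9% and 13.2% of all genes, with a median of 0.08. SPARC, a secreted matrix protein, read 9.74, 10.51 and 10.15 in shCDK8, 7.11, 7.15 and 7.22 in shCDK19 and 6.49, 6.56 and 6.23 in shControl (2.97 ± 0.18, adjusted p = 3.15e-05). PMEPA1, a TGF-beta target that dampens the pathway, read 8.92, 9.68 and 9.66 in shCDK8 and 6.58, 6.41 and 6.56 in shCDK19 (2.90 ± 0.19). SNAI2, a repressor of epithelial genes, read 9.08, 9.26 and 9.53 against 7.08, 6.91 and 6.86 (2.34 ± 0.11, adjusted p = 9.63e-06). None of these 3 genes overlapped between shCDK8 and shCDK19, and PMEPA1 and SNAI2 overlapped between shCDK19 and shControl. ZEB1, another such repressor, rose by 1.35 in shCDK8 and fell by 0.42 in shCDK19 (1.77 ± 0.07). VIM, the mesenchymal filament gene, showed the same opposition (1.68 ± 0.06), as did the matrix gene FN1 (1.14 ± 0.07). TGFB2 differed little between the lines (0.49 ± 0.08), yet stood 12.4-fold above shControl in shCDK8 and 8.83-fold above it in shCDK19. The 2 that fell were TGFB1 (-0.66) and SNAI1 (-0.31).

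**Figure D3:**
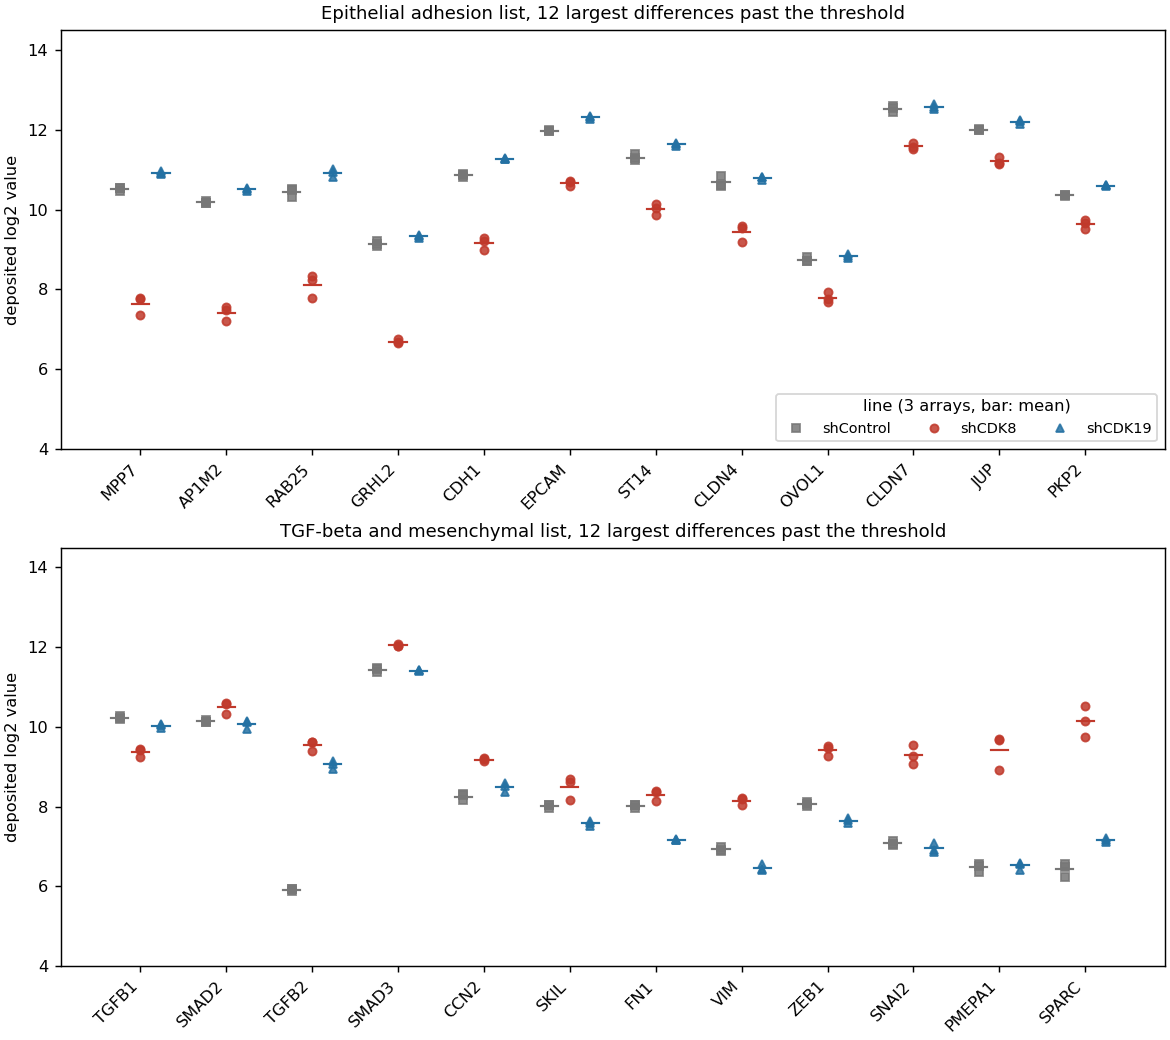
Deposited log2 values on the 9 normal growth arrays for the 12 called members with the largest differences on the epithelial adhesion list (top) and on the TGF-beta and mesenchymal list (bottom); squares are shControl, circles shCDK8, triangles shCDK19, and short bars are means of 3 arrays. In the upper panel all 12 genes are lowest in shCDK8; in the lower panel 11 of 12 are higher in shCDK8 than in shCDK19 and TGFB1 is lower.

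DNA replication genes were lower in shCDK8 than in shCDK19. Of 47 S phase and E2F target genes 38 fell (80.9%) and 2 rose (4.26%), beside 13.2% and 12.9% of all genes. Their median was -0.43. PRIM1, the primase subunit, read 9.04, 9.50 and 9.43 in shCDK8, 10.74, 10.66 and 10.53 in shCDK19 and 10.66, 10.69 and 10.62 in shControl. Its shCDK8 arrays lay below the rest, and shCDK19 and shControl overlapped (-1.32 ± 0.12, adjusted p = 0.000196). The replicative helicase subunit MCM2 (-0.99 ± 0.11), the helicase partner GINS2 (-0.82 ± 0.09) and thymidine kinase TK1 (-0.82 ± 0.11) followed. Against shControl 43 of the 47 fell in shCDK8 and 3 in shCDK19. The 2 that rose were the cyclin E genes CCNE1 (0.38) and CCNE2 (0.51). CCNE2 had overlapping arrays.

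Mitotic genes and histones shifted the same way in normal growth, by less. Of 43 mitotic genes 19 fell (44.2%) and 2 rose (4.65%), beside 13.2% and 12.9% of all genes (median -0.26). Among those that fell were the hyaluronan receptor HMMR (-0.88 ± 0.15), the phosphatase CDC25C (-0.88 ± 0.11) and the kinases TTK (-0.69 ± 0.16) and CDK1 (-0.55 ± 0.15). The count of lower members was 11 without shCDK19 replicate 1. Of 35 replication-dependent histone genes 16 fell (45.7%) and 1 rose (2.86%), with a median of -0.27. Histone genes are near copies of each other, so their probes may not be told apart.

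Targets of p53 were higher in shCDK8. Of 22 measured 15 rose (68.2%) and 0 fell, beside 12.9% and 13.2% of all genes, with a median of 0.51. CDKN1A, the cell cycle inhibitor p21, read 11.07, 11.09 and 10.94 in shCDK8, 10.26, 10.34 and 10.10 in shCDK19 and 10.51, 10.43 and 10.50 in shControl. The 3 groups did not overlap (0.80 ± 0.07, adjusted p = 0.000179). PLK2, a polo-like kinase, differed most (2.53 ± 0.12) and was above shControl in both lines, by 3.21 and 0.68. TIGAR (1.09 ± 0.15), TP53I3 (0.99 ± 0.04) and TP53INP1 (0.97 ± 0.08) also rose. Against shControl 12 of the 22 rose and 2 fell in shCDK8, while 1 rose and 4 fell in shCDK19. Of 14 G1 cyclins and kinase inhibitors 4 rose (28.6%), CDKN1A and the kinase gene CDK6 (1.23 ± 0.11) among them, and 2 fell (14.3%).

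Lipid synthesis and respiration genes were lower in shCDK8. Of 27 sterol and fatty acid synthesis genes 17 fell (63%) and 3 rose (11.1%), beside 13.2% and 12.9% of all genes (median -0.35). The furthest was SQLE, squalene epoxidase, at 9.40, 10.01 and 9.86 in shCDK8 and at least 10.89 on each shCDK19 array (-1.20 ± 0.14, adjusted p = 0.00065). INSIG1, a sterol sensor (-0.71 ± 0.10), and MSMO1, a sterol oxidase (-0.64 ± 0.10), rose in shCDK19, by 0.60 and 0.44 against shControl, and did not pass in shCDK8. Of 39 oxidative phosphorylation subunits 20 fell (51.3%) and 0 rose (median -0.21), led by NDUFS1 (-0.61 ± 0.07) and UQCRH (-0.55 ± 0.07). That count was 12 without shCDK19 replicate 1, and also 12 with only the 6 shCDK8 and shCDK19 arrays in the fit.

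Amino acid and stress genes gave weaker counts. Of 33 ATF4 targets 12 fell (36.4%) and 2 rose (6.06%), beside 13.2% and 12.9% of all genes (median -0.14). The asparagine synthetase gene ASNS differed by -0.64 ± 0.07 and the pseudokinase TRIB3 by -0.60 ± 0.10. The 12 became 6 without shCDK19 replicate 1 or replicate 2 or shCDK8 replicate 3, and 7 without shControl replicate 3. Of 18 chaperone and unfolded protein response genes 9 rose (50%) and 0 fell (median 0.17), DNAJB9 most (0.84 ± 0.14). The 9 became 4 or 5 without any 1 of the 3 shCDK19 arrays, of shCDK8 replicates 2 and 3, or of shControl replicates 1 and 2. Of 27 amino acid transporters 5 rose and 9 fell (median -0.08), the last including SLC7A8 (-1.19 ± 0.10). That is 18.5% and 33.3%, beside 12.9% and 13.2% of all genes.

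Glucose and hypoxia genes were mostly lower where they differed. Of 23 glycolysis and glucose uptake genes 8 fell (34.8%) and 3 rose (13%), beside 13.2% and 12.9% of all genes (median -0.14). The hexokinase gene HK2 fell (-0.88 ± 0.06), while the glucose transporter gene SLC2A1 rose (0.97 ± 0.06) and was above shControl in both lines. The 8 became 5 without shCDK8 replicate 3 and 4 without shCDK19 replicate 1. Of 21 hypoxia targets 8 fell (38.1%) and 3 rose (14.3%), with a median of -0.16. EPAS1, the gene of HIF-2 alpha, read 8.46, 8.59 and 8.58 in shCDK8 and 10.16, 10.10 and 10.09 in shCDK19 (-1.57 ± 0.05). Ribosome biogenesis genes divided into 8 lower and 5 higher of 32 (median -0.08). That is 25% and 15.6%, beside 13.2% and 12.9% of all genes. The 5 became 1 or 2 without any 1 of the shCDK19 arrays, of shCDK8 replicates 2 and 3, or of shControl replicates 1 and 2.

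Wnt and beta-catenin targets were higher in shCDK8 at 10 of 28 measured (35.7%) and lower at 3 (10.7%). Of all genes 12.9% were higher and 13.2% lower. The list's median was 0.07. BMP4, a secreted differentiation factor, read 13.04, 13.18 and 13.16 in shCDK8 and 11.53, 11.57 and 11.55 in shCDK19, where it overlapped with shControl (1.58 ± 0.05, adjusted p = 1.24e-06). The negative feedback genes RNF43 (1.34 ± 0.05) and AXIN2 (0.99 ± 0.07) also rose, AXIN2 being above shControl in both lines. The 10 became 6 without shCDK19 replicate 2 or replicate 3, and the 3 became 6 without shCDK8 replicate 1. Of 15 BMP and ID genes 6 rose (40%) and 2 fell (13.3%), the last near the share of all genes (median 0.12). ID3 differed by 0.95 ± 0.09 and ID2 by -0.98 ± 0.09, both inhibitors of basic helix-loop-helix factors.

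Growth factor and inflammatory response genes moved in both directions. Of 37 immediate early genes 15 rose (40.5%) and 10 fell (27%), beside 12.9% and 13.2% of all genes (median 0.11). KLF4 rose (1.46 ± 0.08), whereas EGR1, a serum-induced transcription factor, was lower in shCDK8 (11.14, 11.02 and 11.05) than in shCDK19 (12.02, 12.08 and 12.11) and lower in both than in shControl (12.92, 12.50 and 12.46). Of 28 NF-kB targets and chemokines 8 rose (28.6%) and 2 fell (7.14%), with a median of 0.15. NFKBIA, the inhibitor of NF-kB, rose by 0.97 in shCDK8 and fell by 0.36 in shCDK19 (1.33 ± 0.06), and the chemokine gene CXCL8 did likewise (0.98 ± 0.09).

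Interferon-stimulated genes moved in both directions. Of 40 measured 7 rose and 4 fell (12.9% and 13.2% of all genes), with a median of 0.02, and without shCDK8 replicate 1 the counts were 15 and 7. IFI6 (0.83 ± 0.07) and OAS1 (0.79 ± 0.07) were the highest. The APOBEC3 cytidine deaminases rose at 4 of 6 (median 0.44). APOBEC3G read 9.0, 9.41 and 9.66 in shCDK8, 6.93, 7.07 and 6.47 in shCDK19 and 5.60, 5.76 and 5.48 in shControl, with no overlap between any groups (2.53 ± 0.20, adjusted p = 0.000115). All 6 APOBEC3 genes were above shControl in both lines in normal growth. In low glucose 5 of the 6 were lower in shCDK8 than in shCDK19 and 0 higher (median -0.53). There 9.04% of all genes were lower and 12.4% higher. These genes are similar in sequence, which can blur their probes.

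**Figure D4:**
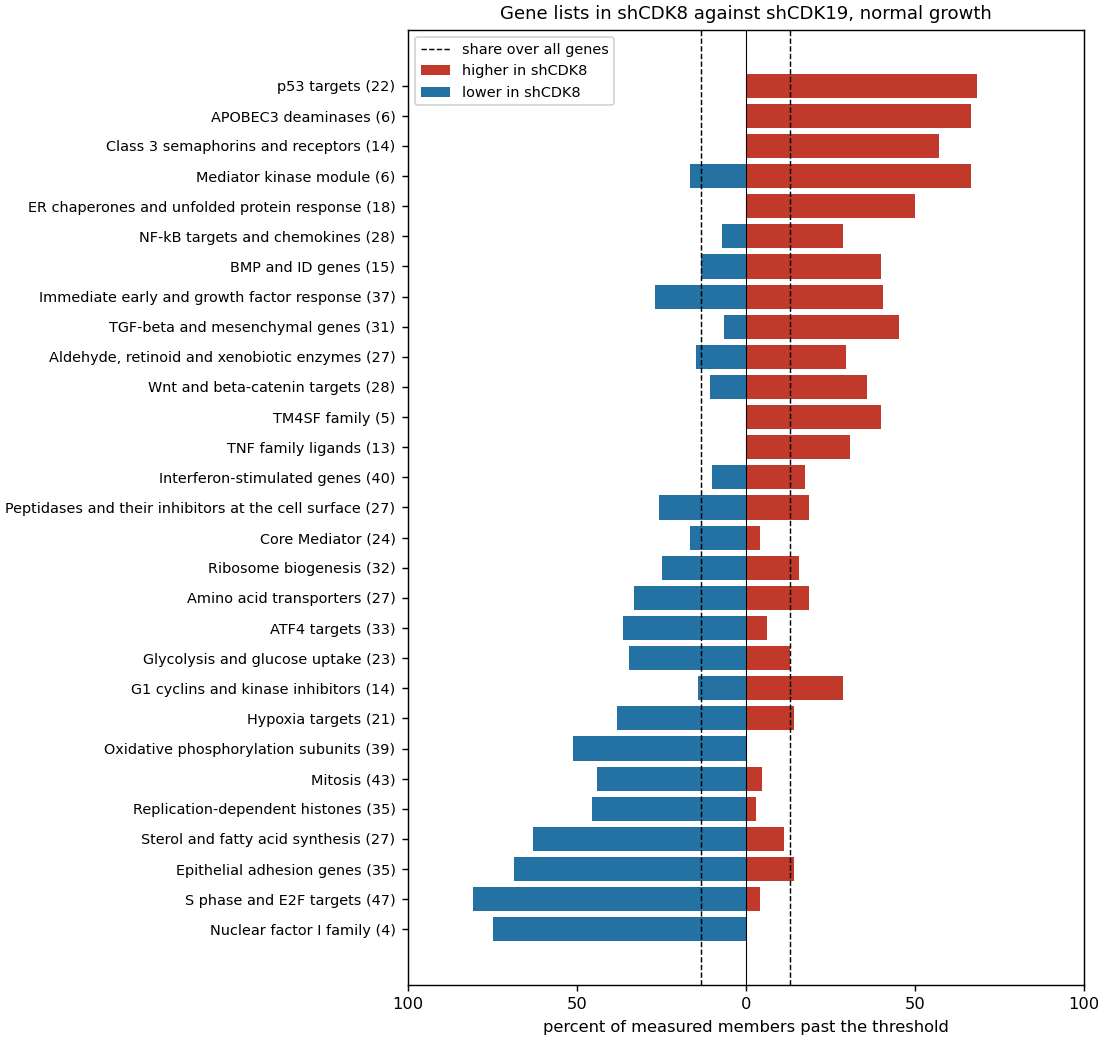
Percent of the measured members (number in brackets) of 29 gene lists that were called higher (right) or lower (left) in shCDK8 than in shCDK19 in normal growth, ordered by the list's median difference; dashed lines mark the shares over all genes, 12.9% higher and 13.2% lower. Nuclear factor I, S phase and epithelial adhesion genes reach furthest to the left; p53 targets and APOBEC3 genes reach furthest to the right beside the Mediator kinase module, whose members include the targeted CDK19.

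The labelled cell type was checked against markers. Of 18 colorectal epithelial markers, KRT8, KRT18, KRT19 and EPCAM had means of at least 10.67 in each line, while the differentiation markers CEACAM5 (5.40 in shCDK8), AGR2 (4.61) and CDH17 (4.89) were close to the floor of 4.32. Of 13 leukocyte markers, 2 rose, LYZ and CD68 (0.80), and 0 fell. Their summed linear level was 3839 to 3929 in shCDK8, 1868 to 2059 in shCDK19 and 1952 to 2000 in shControl. That sum includes LYZ and CD68, with log2 means of 10.59 and 10.18 in shCDK8 and 6.47 and 9.37 in shCDK19. The other 11 markers did not pass the test, and the list's median difference was -0.03. The pan-leukocyte marker PTPRC was at 4.32 in shCDK8, the floor, and the T cell marker CD3E did not pass the test (0.22 ± 0.18, adjusted p = 0.473). The part of these markers in the results was not tested. Of 12 fibroblast markers 1 rose (ACTA2, 0.32) and 1 fell (COL1A1, -0.31), with summed levels of 1409 to 1601 in shCDK8 and 1469 to 1557 in shCDK19, and LUM at the floor in each line. Of 10 endothelial markers 1 rose (ESAM, 0.34) and 0 fell, with summed levels of 912.3 to 1124 and 889.3 to 992. Without shCDK8 replicate 1, 5 leukocyte, 4 fibroblast and 2 endothelial markers were lower in shCDK8, as were 3886 of all 18404 genes. With that array in, 12.9% of all genes were higher and 13.2% lower. In such bulk RNA, fewer cells of a kind and less RNA per cell cannot be told apart.

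The normal growth differences were then read in other arrays of the same lines. The contrasts come from 1 fit of all 35 arrays, and the condition cannot be told apart from the separate set of arrays. In hypoxia the differences were nearly of the same size. Of the 308 genes at least 2-fold apart in normal growth, 305 (99%) had the same sign and 298 passed in that direction. Of all genes 32.2% passed there in either direction. Of the 308 genes 223 were still at least 2-fold apart. The median signed share of the normal growth difference over the 308 was 0.945. In low glucose 283 (91.9%) had the same sign. Of the 308, 241 passed in that direction and 11 in the other, beside 21.5% of all genes in either direction. There 106 were still 2-fold apart and the median share was 0.465. In 5FU 241 (78.2%) had the same sign. Of the 308, 135 passed in that direction and 17 in the other, beside 12.1% of all genes in either direction. There 52 were still 2-fold apart and the median share was 0.202. Because the 308 genes were chosen for a large difference in normal growth, shares below 1 are to be read with that choice in mind.

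The difference between lines was also tested against that in normal growth, gene by gene. Over all genes 2152 (11.7%) passed for low glucose, 3364 (18.3%) for 5FU and 2446 (13.3%) for hypoxia. Of the 308 genes 217, 273 and 82 passed, and the difference was smaller than in normal growth at 206, 267 and 55 of them. The 308 were chosen on the normal growth arrays that enter this test.

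Single genes differed in how far they recurred, while both targets stayed apart. LYZ stood 4.02 higher in shCDK8 in hypoxia, but 0.09 in low glucose and 0.15 in 5FU (adjusted p of the change 1.93e-13 and 2.57e-12). Its shCDK8 level was 10.59 ± 0.18 (SD, n = 3) in normal growth, 6.92 ± 0.23 (n = 3) in low glucose and 5.22 ± 0.21 (n = 2) in 5FU. CDH1 was 2.12 lower in normal growth, with a difference of -0.02 in low glucose, -0.82 in 5FU and -1.59 in hypoxia. In low glucose CDH1 read 11.67 ± 0.04 in shCDK8, 11.69 ± 0.09 in shCDK19 and 11.77 ± 0.04 in shControl. RAB25 behaved likewise (-0.36 in low glucose, -0.29 in 5FU and -2.71 in hypoxia), and so did ST14 (-0.07, -0.34 and -1.51).

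TM4SF18 was higher in shCDK8 by 3.90 in low glucose, 5.00 in 5FU and 4.46 in hypoxia, and the change from normal growth passed in low glucose (-0.92, adjusted p = 0.000658). TNFSF4 was higher by 4.05, 3.44 and 4.46, and its change passed in 5FU (-1.0, adjusted p = 0.000125). Its neighbour TNFSF18 stood at 1.57, 0.47 and 5.64. SLC38A5 was lower at -3.43, -3.01 and -2.67, and NFIB at -2.65, -3.95 and -2.71. PRKAA2 changed its order in 5FU: it read 8.90 ± 0.15 (n = 2) in shCDK19 and 7.96 ± 0.13 in shCDK8, a difference of -0.94 against 3.26 in normal growth (adjusted p of the change 2.89e-12). DPP4 was -3.59 in low glucose but -0.24 in 5FU, where shCDK19 read 6.96 ± 0.02 and shControl 9.29 ± 0.12.

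Gene groups recurred unevenly too. S phase and E2F targets were lower in shCDK8 at 35 of 47 and higher at 1 in low glucose, where 9.04% of all genes were lower and 12.4% higher. In 5FU 2 were lower and 9 higher (6.67% and 5.4% of all genes), and in hypoxia 6 were lower and 22 higher (13.7% and 18.5%). Their median difference was -0.43 in normal growth, -0.36 in low glucose, 0.13 in 5FU and 0.21 in hypoxia. Epithelial adhesion genes had medians of -0.07, -0.29 and -0.58 in low glucose, 5FU and hypoxia, with 12, 18 and 21 of 35 lower and 8, 2 and 5 higher. Lipid synthesis genes (the sterol and fatty acid list) were lower at 22 of 27 in hypoxia, with 2 higher and a median of -0.98. In low glucose 7 were lower and 5 higher (median 0.05), and in 5FU 2 were lower and 6 higher (median 0.12). Targets of p53 had medians of 0.13, -0.29 and 0.27, with 5, 10 and 4 of 22 lower and 5, 1 and 11 higher. Mitotic genes had medians of -0.13, 0.39 and -0.49, with 13, 0 and 29 of 43 lower and 1, 20 and 1 higher. Replication-dependent histone genes had medians of -0.27, 0.19 and -0.16, with 15, 0 and 9 of 35 lower and 0, 10 and 0 higher. APOBEC3 genes had medians of -0.53, -0.30 and 0.63, with 5, 2 and 1 of 6 lower and 0, 0 and 4 higher.

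**Figure D5:**
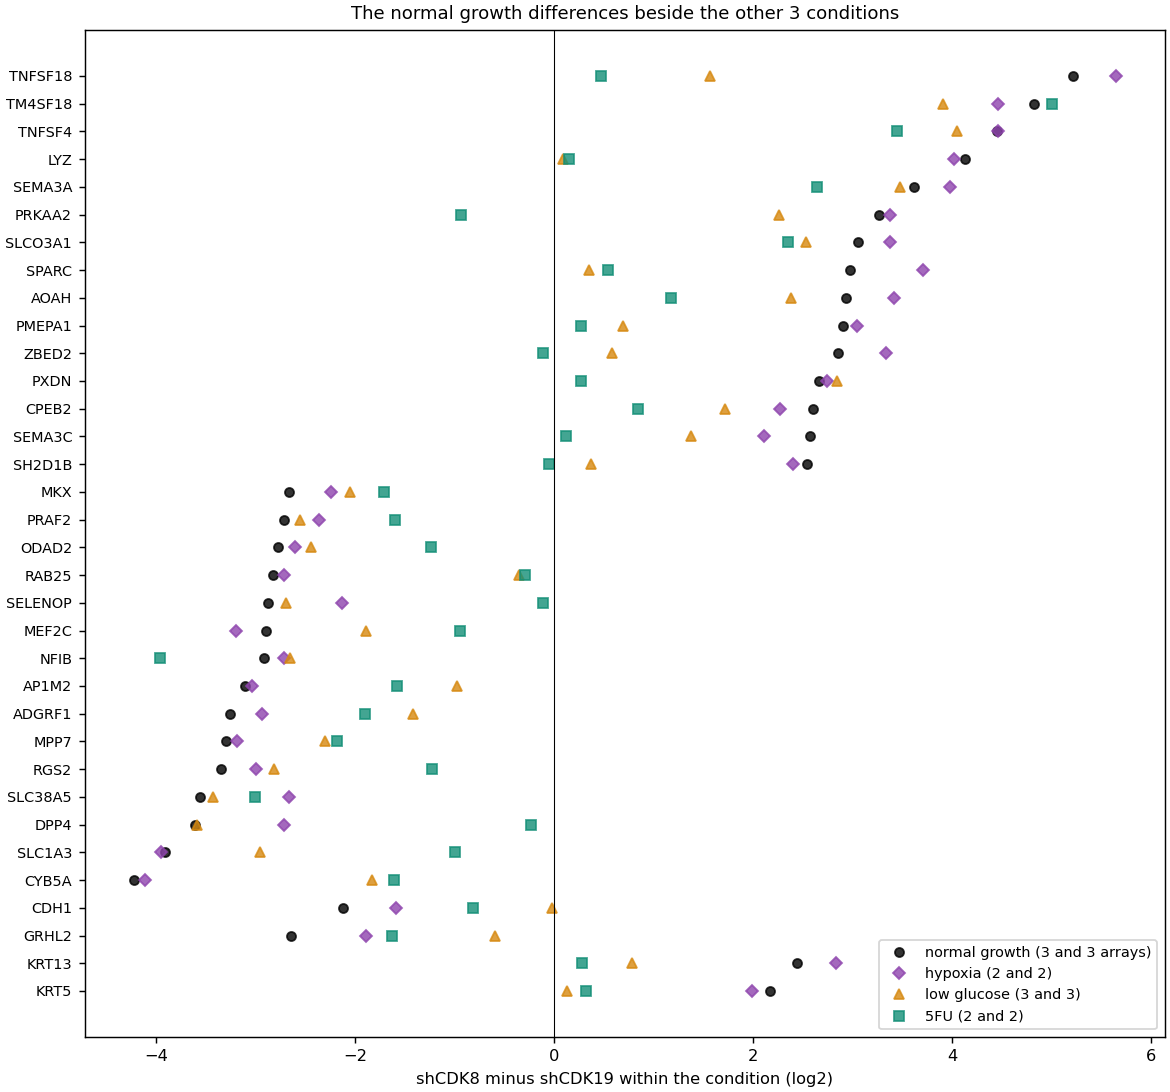
Difference shCDK8 minus shCDK19 in log2 units (x axis) for the 30 genes furthest apart in normal growth and for CDH1, GRHL2, KRT13 and KRT5 (rows), within normal growth (circles, 3 and 3 arrays), hypoxia (diamonds, 2 and 2), low glucose (triangles, 3 and 3) and 5FU (squares, 2 and 2). Diamonds lie near the circles, while many triangles and squares lie closer to 0; TM4SF18, TNFSF4, NFIB and SLC38A5 are far from 0 in all conditions.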

How the data were processed

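Total RNA of HCT116 lines was hybridised to Affymetrix gene arrays, with each sample on its own array. The authors deposited log2 values, 1 per transcript cluster, and the submitters' processing notes name Partek. How background was corrected and values summarized and normalized is not given in the sources used here; folds of genes at the floor are understated.

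Of 32321 clusters 19158 had 1 gene symbol, 1388 several and 11775 none listed. Each of 637 genes with several clusters was represented by its brightest cluster on average, leaving 18404 genes. The 9 normal growth arrays were fitted with 1 mean per group by lmFit and eBayes (limma 3.58.1, R 4.3.3, data.table at version 1.17.8). P-values are two-sided, adjusted by Benjamini-Hochberg, with a threshold of 0.05. Differences between conditions used all 35 arrays. The fit was tested on simulated data.

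The genes, the 33 lists and the motif were chosen with earlier results of these data known. Named genes are the targets, up to 15 per direction with non-overlapping arrays, up to 4 per list, up to 5 per direction for genes moved in 1 line alone, in opposite directions, or differently under another condition, fewer being given; MIR221, MIR222, S100A3, S100A4, S100A6, KRT13, KRT5, KRT80, CDH1, GRHL2 and list members given by name beyond 4 were chosen after their values were seen. Alternatives were other arrays in the fit, scalings, filters, tests and leaving out each array. Promoter and miRNA sequences came from RefSeq (GRCh38.p14).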

Additional observations from a re-analysis of the deposited data

Results flagged for a closer look

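The difference between the lines itself differed by test between normal growth and another condition, and each value here is that change, the other condition's shCDK8 minus shCDK19 difference less the normal growth one (limma, all 35 arrays). In low glucose 2152 genes passed. TM4SF1 changed by 2.86, from 0.52 to 3.38, and SKAP2 by 2.60, from -1.48 to 1.12. LYZ changed by -4.04, TNFSF18 by -3.64 and TM4SF18 by -0.92, and CYB5A by 2.39, SLC1A3 by 0.95, CDH1 by 2.10 and GRHL2 by 2.05, each towards a smaller difference.

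In 5FU 3364 genes passed. DPP4 changed by 3.37, SLC1A3 by 2.91, CYB5A by 2.61, CDH1 by 1.30 and GRHL2 by 1.01, and TNFSF18 by -4.74, PRKAA2 by -4.20 and TNFSF4 by -1.0. PRKAA2 thereby passed to the other side of 0.

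In hypoxia 2446 genes passed. CCNE2 gained 2.12 and FGF9 1.96, whereas ANKRD37 changed by -2.80 and DDIT3 by -2.54. DPP4 changed by 0.89, CDH1 by 0.53 and GRHL2 by 0.75. FGF9, ANKRD37 and DDIT3 did not pass the test in normal growth (adjusted p = 0.791, 0.385 and 0.0658). No cause of these changes was tested.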

How the results depend on the processing

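Among the 166 named genes no difference past the threshold changed sign under any alternative run. The signs of other genes were not followed. Without shCDK8 replicate 1 the list median of TNF family ligands went from 0.04 to -0.06 and that of interferon-stimulated genes from 0.02 to -0.02; list medians were not recomputed under the other alternatives. The number of genes called in the direct comparison (4805) lay between 3587 and 7349 when 1 array was left out (1802 to 3463 higher, 1694 to 3886 lower), the highest without shCDK8 replicate 1; the counts against shControl lay between 3190 and 6713 for shCDK8 (4579) and 662 and 2531 for shCDK19 (1301). Without shCDK8 replicate 1 and shCDK19 replicate 3 together, an alternative chosen after seeing the data, 3742 genes were lower, and 8219 and 2309 were called for shCDK8 and shCDK19 against shControl. Array weights called 10745 genes (4512 higher, 6233 lower), and 10954 and 4095 against shControl; their default estimate did not converge (weight 0.089 for shCDK8 replicate 1, 7 for replicate 3). Weights estimated gene by gene, added after seeing that, called 7613 (4078 lower), 8390 and 3349. The share of higher calls was 42% and 46.4% with these weights, 42.8% with each array's median subtracted and 49.5% in the main setting. For shCDK19 against shControl 781 genes were called with each array's median subtracted. With the replicate number as a block the direct count was 4002 and that for shCDK19 against shControl also 781. The deviations of same-numbered arrays correlated at r from -0.645 to 0.388. Because shCDK8 replicate 1 and shCDK19 replicate 3 stood apart, these values do not settle whether the numbers pair samples. Between 69.5% and 99.1% of the 4805 calls were kept under each alternative. The lowest share came with only the 6 shCDK8 and shCDK19 arrays in the fit. There the lower ATF4 targets went from 12 to 7, the higher chaperone genes from 9 to 4 and the higher Wnt targets from 10 to 6. With each array's median subtracted the lower glycolysis genes went from 8 to 4 and the higher chaperone genes from 9 to 4. Of 166 named genes at most 14 lost the threshold in any setting, MIR222 among them.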

Other observations

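Genes at least 2-fold apart lay side by side in places. Of 16898 protein-coding genes placed in order along RefSeq's chromosomes, 300 were called and at least 2-fold apart, and 28 of these fell in 13 runs of 2 or more. The longest had 3 genes. MKX, ODAD2 and MPP7 on chromosome 10 were all lower in shCDK8, by -2.66, -2.77 and -3.29. Their neighbours RAB18 (0.09 ± 0.14) and WAC (0.02 ± 0.07) did not pass the test. NECTIN3, CD96 and ZBED2 on chromosome 3 were all higher, by 1.04, 1.25 and 2.85. SPARC and ATOX1 (1.22) on chromosome 5 were also neighbours. Whether any run is more than neighbours share by position was not tested.

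A few genes outside the lists were picked out after their values were seen, so they stand for no group. The keratin gene KRT13 read 10.20, 10.58 and 10.34 in shCDK8 and 7.85, 7.93 and 8.03 in shCDK19 (2.44 ± 0.09, adjusted p = 3.07e-06). KRT5 differed by 2.17 ± 0.11 and KRT80 by 1.37 ± 0.08. Of the S100 genes, S100A14 was lower (-2.65 ± 0.08), and S100A3 (1.99 ± 0.15), S100A4 (0.90 ± 0.07) and S100A6 (0.58 ± 0.05) were higher. In the same stretch S100A2 (0.01, adjusted p = 1), S100A5 (0.20, adjusted p = 0.482) and S100A16 (0.09, adjusted p = 0.481) did not pass the test.

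The transcript cluster annotated to MIR221 moved in opposite directions in the lines. MIR221 read 11.31, 11.28 and 11.14 in shCDK8, 9.22, 9.59 and 8.86 in shCDK19, and 10.00, 10.40 and 10.52 in shControl (2.02 ± 0.19, adjusted p = 0.000283). The 3 groups did not overlap. Its neighbour MIR222 differed by 0.76 ± 0.21 (adjusted p = 0.0318), and lost the threshold without shControl replicate 2, shCDK8 replicate 2 or 3, or shCDK19 replicate 3. The mature miRNAs share their seed, bases 2 to 8, which the capitals mark (RefSeq, GRCh38.p14, chromosome X, minus strand).
hsa-miR-221-3p: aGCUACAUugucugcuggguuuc
hsa-miR-222-3p: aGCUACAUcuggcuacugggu
The mature miRNA levels were not measured.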
